A study of Mus musculus with 6 samples.

Results

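The genes described here encode adaptor and cross-linking proteins of focal adhesions and stress fibres: Vcl, Pxn, Zyx, Ptk2, Tgfb1i1, Lpp, Actn1, Actn4, Vasp and Synpo. They were chosen by symbol, and all 10 were found among the 23337 gene rows of the count tables. RNA was sequenced from stromal fibroblasts of the mouse mammary gland. There were 3 samples from mice homozygous for the Sharpin allele cpdm (cpdm/cpdm, Sharpin deficient) and 3 from wild-type mice (wt/wt), all of the C57BL/KaLawRij strain and 7 weeks old. The cpdm mutation is carried by every cell of the animal and not by fibroblasts alone. Each sample pooled the glands of 3 mice, and the cells were studied at passage 0 after growth to confluence in medium with serum, so that the results concern cultured cells and not the gland itself. The series concerns collagen architecture and ductal invasion, and the comparison asks which fibroblast transcripts differ when SHARPIN is missing.

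Focal adhesions are the plaques through which integrins, the matrix receptors of the cell surface, hold on to the ends of contractile actin bundles called stress fibres. Talin and kindlin bind the integrin tails, vinculin links talin to actin, focal adhesion kinase and paxillin carry the signal inward, and alpha-actinin, zyxin and VASP cross-link, mend and lengthen the filaments. SHARPIN is known as part of LUBAC, the enzyme complex that builds linear ubiquitin chains, and also as a protein that binds integrin alpha tails and holds integrins inactive, which is why the transcripts of adhesion proteins are of interest in its absence.

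The 6 libraries held between 13570649 and 15656196 counts assigned to genes, and the 10 adaptor genes had between 1498 and 17129 counts each in a library, so that counting error was small for all of them. Sharpin had 10.5, 9.13 and 9.50 CPM (CPM here scales each library to the total of its gene rows) in Sharpin-cpdm libraries 1 to 3, against 24.5, 25.2 and 31.2 CPM in wild-type libraries 1 to 3. The log2 fold change (Sharpin-cpdm over wild type) was -1.49 ± 0.14 (SE, 3 libraries a group; edgeR adjusted p 0.272), and -1.48 ± 0.12 when the replicate number entered the fit as a block (edgeR adjusted p 0.00595). Fibroblast markers were abundant everywhere, at 65115 to 81103 CPM summed over 16 markers in Sharpin-cpdm, against 68107 to 91238 CPM in wild type. The cultures also held transcripts of other cell types: 19 endothelial markers summed to 591 to 882 CPM in Sharpin-cpdm, against 782 to 1402 CPM in wild type. Sums over 12 pericyte and vascular smooth muscle markers were 1925 to 2145 CPM in Sharpin-cpdm, against 2080 to 2490 CPM in wild type. With the block, 15 of the 19 endothelial, 3 of 11 pericyte and vascular smooth muscle and 5 of 16 fibroblast markers fell and 0 of each rose. Fell and rose mean a blocked edgeR adjusted p under 0.05, which 2.11% and 0.394% of all 13442 tested genes had. Of 8 tested basal and myoepithelial markers 0 passed in edgeR (3 at an unadjusted p under 0.05). Of other types, 2 of 3 tested adipocyte markers fell, Fabp4 and Lpl, while 5 of all 9 listed, among them Adipoq and Plin1, were under 1 CPM in every library. Of 7 Schwann markers 1 rose. Of 12 macrophage and 10 luminal markers 0 passed in edgeR (1 of each at an unadjusted p under 0.05), where 2326 of 13442 genes had such a p in the blocked fit. In bulk RNA of this kind, fewer cells of a type and less RNA per cell cannot be told apart.

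Among the adaptors, Actn1 and Synpo had mean levels 21.9% and 21.3% above wild type in Sharpin-cpdm cultures; both passed the test that pairs libraries by number and neither passed the unpaired one. The differences of the other 8 passed neither test. Without the block 0 of the 10 passed edgeR's test in either direction, beside 0% of all 13442 tested genes, with 1 of the 10 (Synpo) and 307 of all genes at an unadjusted p under 0.05. DESeq2 and limma-voom without the block also called 0 of the 10; over all tested genes DESeq2 called 2 higher and 8 lower and limma-voom 0. In the blocked test, which sets each Sharpin-cpdm library beside its wild-type counterpart of equal number, 2 of 10 rose and 0 fell. Over all tested genes 0.394% rose and 2.11% fell, 2.51% in all. The words rose and fell are kept for genes whose blocked edgeR adjusted p, over all tested genes, was under 0.05. The fit without the block was set as the main one, and the pairing by number was read from these same counts. Of the 10, 7 were higher in Sharpin-cpdm in all 3 pairs and 0 were lower in all 3, beside 22.7% and 18.5% of all tested genes. The median log2 fold change with the block was 0.10 over the 10 adaptors and -0.0017 over all tested genes; 8 of the 10 lay above 0, beside 49.5% of all tested genes. With pair 1 left out both genes passed, beside 140 higher and 533 lower of all tested genes. Without pair 2, 0 of the 10 passed, beside 9 higher and 119 lower of all tested genes. Without pair 3, 0 of the 10 passed, beside 3 higher and 41 lower. Calls over all genes were thus fewer in these 2 fits than with all 3 pairs, but more numerous in the equally small fit without pair 1. The cause was not tested. When offsets for GC content and transcript length were added to the block, Actn1 and Synpo passed as well, and the calls over all genes became 168 higher and 297 lower, in place of 53 higher and 284 lower.

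**Figure D1:**
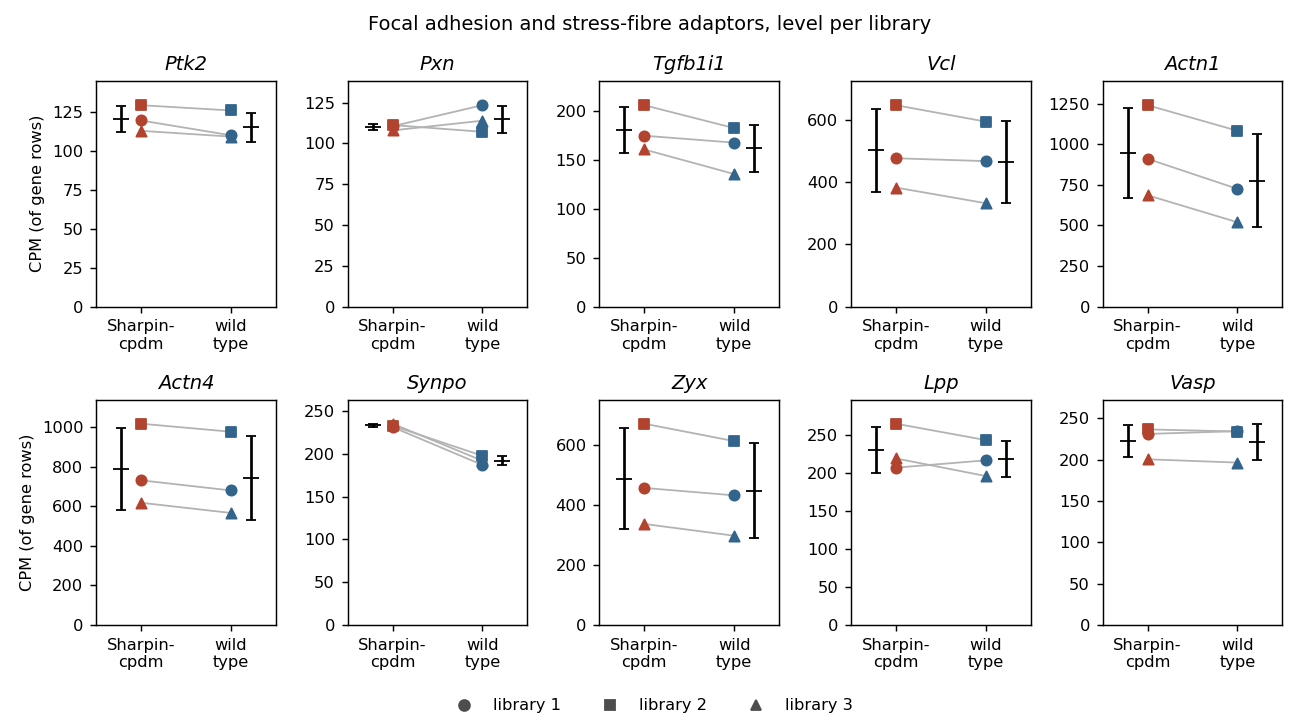
Level of each adaptor gene in CPM of gene rows (linear axes from 0), with 3 Sharpin-cpdm libraries on the left and 3 wild-type libraries on the right of each panel. Grey lines join libraries of the same number and black bars show mean ± SD; Synpo is the single gene whose groups do not overlap, and library 2 is the highest of each genotype for Vcl, Zyx, Actn1 and Actn4.

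Actn1 encodes alpha-actinin-1, which cross-links actin filaments along stress fibres and at adhesion plaques. It spans chr12:80167547-80260371, minus strand (mm10, GENCODE M21). Its level was 911, 1242 and 686 CPM in Sharpin-cpdm libraries 1 to 3, against 725, 1084 and 520 CPM in wild-type libraries 1 to 3. Library 2 was the highest and library 3 the lowest in each genotype, and the groups overlapped. Within every pair the Sharpin-cpdm library was the higher, by 0.33, 0.20 and 0.40 on the log2 scale in pairs 1 to 3. The log2 fold change was 0.28 ± 0.34 (SE, 3 libraries a group) without the block, at an unadjusted edgeR p of 0.439, and 0.30 ± 0.05 with it, at an edgeR adjusted p of 0.0340. With a pair left out, the blocked log2 fold change stayed at 0.34 without pair 2 (edgeR adjusted p 0.119) and 0.26 without pair 3 (edgeR adjusted p 0.181). Without a block the value depended on single libraries, with a log2 fold change of 0.0014 when Sharpin-cpdm library 2 was left out, of 0.057 without wild-type library 3, of 0.62 without wild-type library 2 and of 0.48 without Sharpin-cpdm library 3.

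Actn4 encodes alpha-actinin-4, the other alpha-actinin of non-muscle cells. It had 732, 1019 and 619 CPM in Sharpin-cpdm libraries 1 to 3, against 681, 978 and 567 CPM in wild-type libraries 1 to 3. The order of the libraries was that of Actn1, but the genotype difference was smaller in each pair, at 0.10, 0.059 and 0.13 on the log2 scale. It did not pass, with a log2 fold change of 0.085 ± 0.04 and a blocked edgeR adjusted p of 0.353.

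Synpo encodes synaptopodin, an actin-associated protein that binds alpha-actinin and is best known from kidney podocytes and dendritic spines. It spans chr18:60593973-60660142, minus strand. Its level was 231, 233 and 235 CPM in Sharpin-cpdm libraries 1 to 3, against 187, 197 and 192 CPM in wild-type libraries 1 to 3. The libraries of each genotype lay close together, and every Sharpin-cpdm library was above every wild-type one. The other 9 adaptors had groups that overlapped, and 5.94% of all tested genes had groups that did not, 3.35% with Sharpin-cpdm higher and 2.59% with it lower. Synpo averaged 233 ± 1.97 CPM in Sharpin-cpdm, against 192 ± 5.33 CPM in wild type (SD, n = 3 each). Its log2 fold change was 0.27 ± 0.08 without the block, at an unadjusted edgeR p of 0.0148, and 0.27 ± 0.04 with it, at an edgeR adjusted p of 0.0300. DESeq2 with the block gave an adjusted p of 0.0516 for a log2 fold change of 0.27. The blocked log2 fold change was 0.28 without pair 2 (edgeR adjusted p 0.163) and 0.27 without pair 3 (edgeR adjusted p 0.151). The summed endothelial markers were lower in Sharpin-cpdm in each pair, by log2 differences of -0.40, -0.78 and -0.67 in pairs 1 to 3, and their part in the levels of Actn1 and Synpo was not tested.

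**Figure D2:**
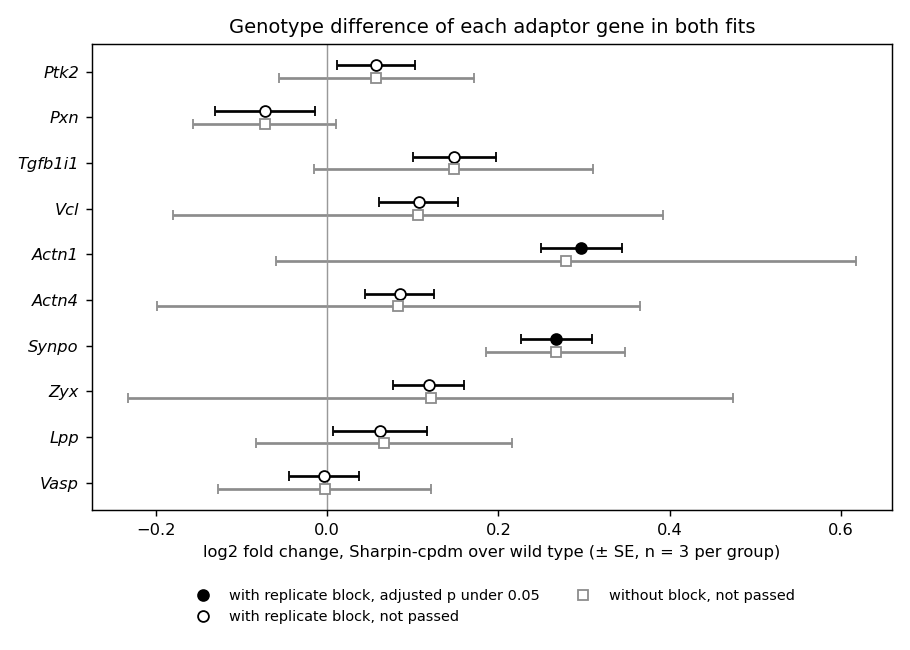
Log2 fold change (Sharpin-cpdm over wild type, x axis) of each adaptor gene ± SE, from edgeR with the replicate block (circles, filled where the adjusted p was under 0.05) and without it (grey squares), n = 3 per group. Actn1 at 0.30 and Synpo at 0.27 carry the filled circles, and the grey error bar of Actn1 is ± 0.34 where the black one is ± 0.05.

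Vcl encodes vinculin, which joins talin to actin and stiffens the adhesion under load. It had 476, 647 and 382 CPM in Sharpin-cpdm libraries 1 to 3, against 467, 594 and 332 CPM in wild-type libraries 1 to 3. The groups overlapped almost fully, and within pairs the Sharpin-cpdm library was higher by 0.028, 0.12 and 0.20 on the log2 scale. The log2 fold change with the block was 0.11 ± 0.05, with an edgeR adjusted p of 0.311. Exons of Vcl and of Ap3m1, on the opposite strand, share 2090 bases in GENCODE M21, and no strand setting of the counting was given. Smaller overlaps with opposite-strand exons were found for Actn1 (Gm47766, 363 bases), Actn4 (Capn12, 316 bases), Zyx (Epha1, 236 bases) and Lpp (Lppos, 82 bases), so that reads from these stretches could be lost from the counts or assigned to the partner.

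The kinase and scaffold genes of the adhesion did not pass in edgeR's test with the block. Ptk2, which encodes focal adhesion kinase, had 119, 129 and 113 CPM in Sharpin-cpdm libraries 1 to 3, against 110, 126 and 109 CPM in wild-type libraries 1 to 3. Its log2 fold change with the block was 0.057 ± 0.05, with an edgeR adjusted p of 0.583. Pxn, which encodes the scaffold paxillin, had 110, 111 and 108 CPM in Sharpin-cpdm libraries 1 to 3, against 123, 107 and 114 CPM in wild-type libraries 1 to 3. It was the single adaptor that was lower in Sharpin-cpdm in 2 of 3 pairs, with a log2 fold change of -0.072 ± 0.06 and a blocked edgeR adjusted p of 0.585.

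Tgfb1i1 encodes Hic-5, the paxillin relative that TGF-beta is known to induce and that takes part in myofibroblast contractility. It had 174, 205 and 160 CPM in Sharpin-cpdm libraries 1 to 3, against 167, 182 and 135 CPM in wild-type libraries 1 to 3. The Sharpin-cpdm library was the higher in each pair, by 0.060, 0.17 and 0.25 on the log2 scale, and the groups overlapped. Its log2 fold change with the block, 0.15 ± 0.05, was the largest among the 8 genes that did not pass, with a blocked edgeR adjusted p of 0.194 and an unadjusted p of 0.0207.

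Zyxin, LPP and VASP sit where stress fibres end or are repaired. Zyx had 457, 672 and 337 CPM in Sharpin-cpdm libraries 1 to 3, against 433, 614 and 298 CPM in wild-type libraries 1 to 3. Within pairs the difference was 0.081, 0.13 and 0.18 on the log2 scale, and the groups overlapped. The log2 fold change with the block was 0.12 ± 0.04, with a blocked edgeR adjusted p of 0.223 and an unadjusted p of 0.0277. Lpp, the zyxin relative first named from lipomas, had 207, 265 and 220 CPM in Sharpin-cpdm libraries 1 to 3, against 217, 244 and 196 CPM in wild-type libraries 1 to 3. It was higher in Sharpin-cpdm in 2 of 3 pairs, with a log2 fold change of 0.062 ± 0.05 and a blocked edgeR adjusted p of 0.619. Vasp, whose product binds zyxin and lengthens actin filaments, had 231, 236 and 200 CPM in Sharpin-cpdm libraries 1 to 3, against 234, 234 and 196 CPM in wild-type libraries 1 to 3. Its genotype difference was the smallest of the 10, with a log2 fold change of -0.0037 ± 0.04 and a blocked edgeR adjusted p of 0.977.

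Most of the adaptors varied more between libraries of different number than between genotypes. In a test chosen after the values were seen, edgeR's F-test of the replicate number terms passed for 8 of the 10, beside 37.2% of all tested genes, and did not pass for Pxn and Synpo. The edgeR adjusted p of these 8 ran from 0.00038 for Zyx to 0.0242 for Ptk2. The labels do not say what a number marks. Library 2 exceeded library 3 by 0.99 on the log2 scale in Sharpin-cpdm and 1.04 in wild type for Zyx, by 0.86 in Sharpin-cpdm and 1.06 in wild type for Actn1, by 0.76 in Sharpin-cpdm and 0.84 in wild type for Vcl, and by 0.72 in Sharpin-cpdm and 0.79 in wild type for Actn4. These 4 genes were above 0.5 in both genotypes, beside 7.04% of all tested genes. Tgfb1i1 followed at 0.36 in Sharpin-cpdm and 0.43 in wild type, and Synpo stood at -0.014 in Sharpin-cpdm and 0.042 in wild type. Sums of cell type markers also differed between libraries, in orders that varied with the cell type. Summed macrophage and myeloid markers were 154, 409 and 263 CPM in Sharpin-cpdm libraries 1 to 3, against 82.8, 488 and 212 CPM in wild-type libraries 1 to 3. Library 2 had the highest sum of each genotype, and in Sharpin-cpdm library 2 Lyz2 alone held 263 CPM. Among Sharpin-cpdm libraries Csf1r and C1qb were also highest in library 2, but Cd68 and Itgam in library 3. Summed basal and myoepithelial markers were 111, 114 and 42.6 CPM in Sharpin-cpdm libraries 1 to 3, against 98.5, 193 and 75.8 CPM in wild-type libraries 1 to 3. That is the library order of Actn1, but libraries 1 and 2 of Sharpin-cpdm differed little. Between these 2 libraries Krt14 (41.5 and 38.8 CPM) and Krt5 (10.7 and 7.61 CPM) were higher in library 1. Krt17 (32.3 and 38.1 CPM) and Lgr6 (14.8 and 20.2 CPM) were higher in library 2. Fibroblast and adipocyte sums were lowest in library 2 of each genotype, the adipocyte sum being mostly Lpl. Endothelial sums were highest in library 3 of each genotype. The luminal sum was highest in library 1 of Sharpin-cpdm and in library 2 of wild type. The part of these cells in the adaptor levels was not tested.

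**Figure D3:**
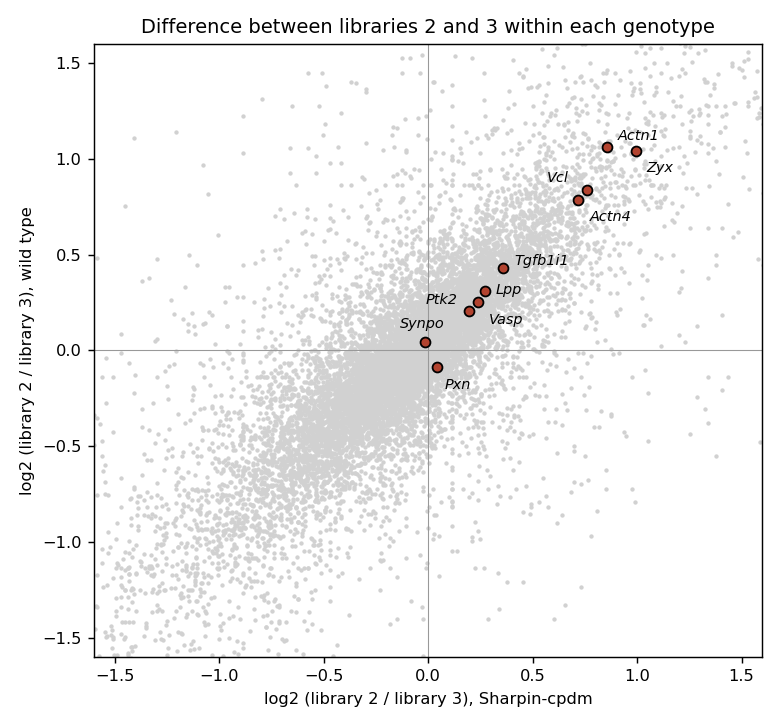
Log2 ratio of library 2 to library 3 in Sharpin-cpdm (x axis) and in wild type (y axis), from CPM of gene rows, for the 10 adaptor genes (red) and all tested genes with counts in every library (grey, shown within ± 1.6). Zyx, Actn1, Vcl and Actn4 lie at the upper right with values between 0.72 and 1.06, and Synpo and Pxn lie near 0.

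Because Vcl, Zyx, Actn1 and Actn4 moved together across the libraries, their promoter windows are shown (the table matched 6 of the 10 adaptors; RefSeq, GRCm38.p6, from 250 bases before to 50 after the start of the gene, on the strand of the gene). Capitals mark matches on either strand to 3 motifs: the CArG box, which serum response factor binds, GGAATG, the core bound by TEAD factors, and GGGCGG, bound by SP and KLF factors.
Vcl, chr14:20929148-20929447, plus strand: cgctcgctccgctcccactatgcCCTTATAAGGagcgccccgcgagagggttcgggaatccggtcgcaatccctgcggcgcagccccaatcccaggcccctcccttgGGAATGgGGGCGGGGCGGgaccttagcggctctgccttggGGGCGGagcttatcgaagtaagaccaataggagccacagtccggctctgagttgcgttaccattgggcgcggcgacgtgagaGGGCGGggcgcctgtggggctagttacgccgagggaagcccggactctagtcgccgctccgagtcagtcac
Zyx, chr6:42349578-42349877, plus strand: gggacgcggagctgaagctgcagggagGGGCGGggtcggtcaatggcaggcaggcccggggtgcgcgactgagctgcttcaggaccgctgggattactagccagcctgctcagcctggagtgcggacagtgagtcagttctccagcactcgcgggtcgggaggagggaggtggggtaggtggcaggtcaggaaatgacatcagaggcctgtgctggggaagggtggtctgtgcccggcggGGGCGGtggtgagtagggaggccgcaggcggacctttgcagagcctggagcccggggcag
Actn1, chr12:80260314-80260613, minus strand: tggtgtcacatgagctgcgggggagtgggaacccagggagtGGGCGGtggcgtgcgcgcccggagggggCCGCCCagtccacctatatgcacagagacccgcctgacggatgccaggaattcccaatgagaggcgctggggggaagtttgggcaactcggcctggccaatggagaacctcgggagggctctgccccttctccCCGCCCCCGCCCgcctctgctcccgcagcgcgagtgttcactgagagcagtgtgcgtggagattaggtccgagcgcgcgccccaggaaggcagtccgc
Actn4, chr7:28962283-28962582, minus strand: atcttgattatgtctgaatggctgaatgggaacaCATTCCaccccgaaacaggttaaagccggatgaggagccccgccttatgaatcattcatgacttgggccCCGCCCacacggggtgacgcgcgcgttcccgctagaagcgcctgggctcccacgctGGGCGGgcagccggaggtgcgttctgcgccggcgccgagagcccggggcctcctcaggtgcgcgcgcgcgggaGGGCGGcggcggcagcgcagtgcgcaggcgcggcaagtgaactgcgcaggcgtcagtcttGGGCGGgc

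The window of Vcl held 1 CArG box, whose first base is at position -227 from the start of the gene, and 1.63% of the 32851 promoter windows in the table held such a box. Those of Zyx, Actn1 and Actn4 held 0. GGAATG was found 1 time in the window of Vcl and 1 time in that of Actn4, beside 14.7% of all windows with a match. GGGCGG was found in all 4, with 4 matches in Vcl, Actn1 and Actn4 and 2 in Zyx, of which the first pair in Vcl overlap each other, beside 35.7% of all windows. The window of Vasp and the first of the 2 windows of Lpp held 0 matches to the 3 motifs, and the second window of Lpp held GGAATG 1 time. Matches of this kind are letters in a window and do not show that a factor binds there. Srf itself, which encodes serum response factor, had 87.0, 111 and 68.2 CPM in Sharpin-cpdm libraries 1 to 3, against 85.0, 113 and 61.0 CPM in wild-type libraries 1 to 3. The log2 fold change of Srf with the block was 0.042 ± 0.05, with an edgeR adjusted p of 0.711. Srf was added after its values were seen, and its library 2 was the highest of each genotype. Among its partners, Myocd, at most 1.47 CPM, was also highest in library 2 of each genotype, but Elk3 and Mkl2 were highest in library 3 of each. A link between Srf and the adaptor levels was not tested.

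Per kilobase of the longest annotated transcript, the alpha-actinins were the most abundant of the adaptors and Lpp the least. Actn1 had a level of 253 ± 74.8 CPM per kb in Sharpin-cpdm and 208 ± 76.5 CPM per kb in wild type (SD, n = 3 each), and Actn4 had 204 ± 53.2 CPM per kb in Sharpin-cpdm and 191 ± 54.7 in wild type. Zyx followed at 153 ± 53.2 CPM per kb in Sharpin-cpdm and 141 ± 49.7 CPM per kb in wild type, Vasp at 100.5 ± 8.78 in Sharpin-cpdm and 100 ± 9.85 in wild type, and Vcl at 95.3 ± 25.5 in Sharpin-cpdm and 88.2 ± 24.9 in wild type. From Actn1 down to Vcl, neighbours in this order had ranges that overlapped in each genotype. Tgfb1i1 stood at 47.5 ± 6.10 CPM per kb in Sharpin-cpdm and 42.6 ± 6.32 in wild type, below the range of Vcl and overlapping that of Synpo, at 45.2 ± 0.38 in Sharpin-cpdm and 37.2 ± 1.03 in wild type. Pxn had 29.2 ± 0.46 CPM per kb in Sharpin-cpdm and 30.5 ± 2.18 in wild type. Ptk2 had 25.7 ± 1.77 CPM per kb in Sharpin-cpdm and 24.5 ± 2.02 in wild type, and Lpp had 14.9 ± 1.98 in Sharpin-cpdm and 14.2 ± 1.54 in wild type. The ranges of these 3 lay apart from those of their neighbours in both genotypes. With the summed length of all exons, Ptk2 and Lpp changed places in both genotypes, as did Zyx and Vasp in wild type.

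Ratios of related adaptors within a library do not depend on how libraries are scaled, and 3 pairs of related genes were compared. Counts of Actn1 over those of Actn4 gave 1.24, 1.22 and 1.11 in Sharpin-cpdm libraries 1 to 3, against 1.07, 1.11 and 0.916 in wild-type libraries 1 to 3. Every Sharpin-cpdm library was above every wild-type one, although library 3 of Sharpin-cpdm and library 2 of wild type both round to 1.11. The difference of the mean log2 ratios was 0.21, with an exact two-sided permutation p of 0.1, the smallest that 3 against 3 allows, and 0.3 after adjustment over the 3 ratios. Within pairs it was 0.22, 0.14 and 0.28, and it was 0.13 without wild-type library 3. Counts of Zyx over Lpp gave 2.21, 2.53 and 1.54 in Sharpin-cpdm libraries 1 to 3, against 1.99, 2.52 and 1.52 in wild-type libraries 1 to 3, a difference of 0.057 in the mean log2 ratio with an exact permutation p of 0.7. Its sign turned when 1 library was left out, to -0.096 without Sharpin-cpdm library 2 and to -0.13 without wild-type library 3. Pxn over Tgfb1i1 gave 0.634, 0.541 and 0.673 in Sharpin-cpdm libraries 1 to 3, against 0.738, 0.588 and 0.842 in wild-type libraries 1 to 3. The Sharpin-cpdm library was the lower in each pair, the difference of the mean log2 ratios was -0.22, and the exact permutation p was 0.3 before adjustment and 0.45 after it. This difference was -0.10 without wild-type library 3, -0.13 without Sharpin-cpdm library 2 and -0.36 without wild-type library 2.

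**Figure D4:**
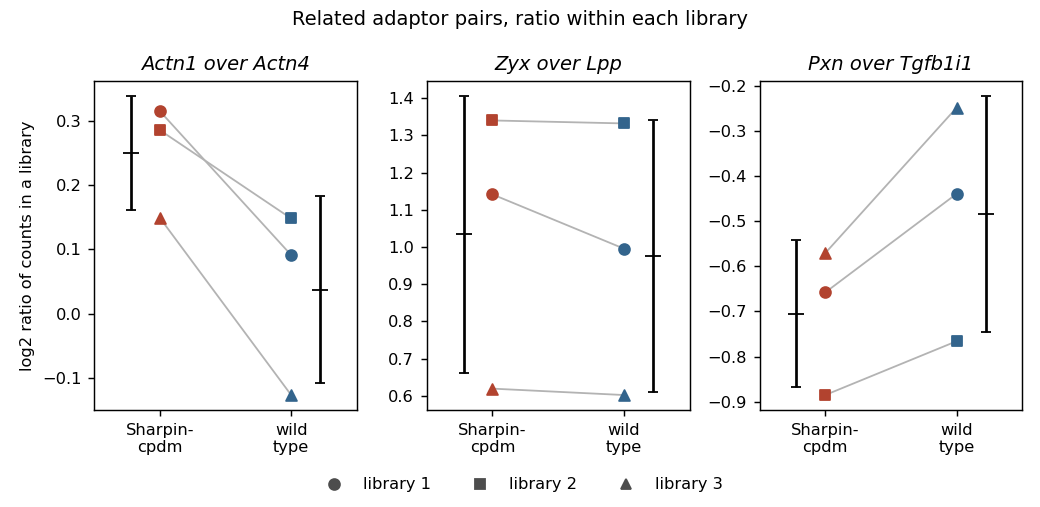
Log2 ratio of the counts of 2 related genes within each library, for Actn1 over Actn4, Zyx over Lpp and Pxn over Tgfb1i1; lines join libraries of the same number and black bars show mean ± SD (n = 3 per group). All 3 lines of Actn1 over Actn4 are higher on the Sharpin-cpdm side, all 3 of Pxn over Tgfb1i1 are lower there, and libraries of different number spread widely for Zyx over Lpp.

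Of 139 other genes of the same structures, all tested, 7 rose and 2 fell with the block, beside 0.394% and 2.11% of all tested genes. Without the block 0 passed in edgeR's test, with 4 at an unadjusted p under 0.05, beside 307 of the 13442 tested genes. In blocked fits with a pair left out, 11 rose and 7 fell without pair 1, 2 rose and 0 fell without pair 2, and 0 passed without pair 3, beside 140 higher and 533 lower, 9 higher and 119 lower, and 3 higher and 41 lower of all tested genes. The log2 fold change of Cnn2, one of those that rose, was 0.32 without pair 2 and 0.24 without pair 3, where it did not pass. Among 24 genes of stress-fibre myosin, tropomyosin and calponin, 4 rose and 0 fell. They were Cnn1, a calponin of contractile cells (log2 fold change 0.51 ± 0.09, blocked edgeR adjusted p 0.0440), Tagln, transgelin (0.41 ± 0.07, 0.0394), Myl9, the regulatory myosin light chain (0.35 ± 0.06, 0.0449), and Cnn2 (0.28 ± 0.05, 0.0386). The call of Cnn1 was lost in limma-voom with the block, at an adjusted p of 0.0558. Cnn1 had 49.2, 176 and 27.2 CPM in Sharpin-cpdm libraries 1 to 3, against 31.4, 145 and 16.1 CPM in wild-type libraries 1 to 3. Like Actn1, it was highest in library 2 and lowest in library 3 of each genotype, and higher in Sharpin-cpdm in every pair.

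Of 32 genes for stress-fibre actin, its cross-linkers and assembly factors, Actg2, the enteric smooth muscle actin, rose by 0.44 ± 0.08 and the formin gene Diaph3, listed as Diap3, by 0.39 ± 0.07, with blocked edgeR adjusted p of 0.0402 and 0.0466; DESeq2 with the block did not call Diap3, at an adjusted p of 0.165. Of 25 LIM and zyxin-family genes, Lasp1, which encodes an actin-binding LIM and SH3 protein, rose by 0.23 ± 0.04 and 0 fell, with a blocked edgeR adjusted p of 0.0434 and a DESeq2 adjusted p of 0.0852 with the block. Of 23 genes of the layer next to the integrins, such as talins, kindlins and tensins, 0 passed in the blocked edgeR fit, with 8 at an unadjusted p under 0.05, beside 2326 of the 13442 tested genes. The smallest p belonged to Parva, which encodes the actin-binding alpha-parvin, at 0.22 ± 0.04, and to Flna, filamin A, at 0.24 ± 0.05. Their blocked edgeR adjusted p were 0.0570 and 0.0641. Both passed with offsets for GC content and length (edgeR adjusted p 0.0245 and 0.0283), where all tested genes gave 168 higher and 297 lower. Both also passed in limma-voom with the block (adjusted p 0.0442 and 0.0436). Neither passed in DESeq2 with the block (adjusted p 0.177 and 0.0505) or with gene-row totals (edgeR adjusted p 0.0625 and 0.0726). With DESeq2 size factors, or with any 1 pair left out, neither passed edgeR's blocked test. Parva had 317, 426 and 283 CPM in Sharpin-cpdm libraries 1 to 3, against 276, 374 and 230 CPM in wild-type libraries 1 to 3, with the library order of Actn1.

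The 2 genes that fell were among the 27 adhesion kinases and signalling adaptors. Arhgef7 encodes beta-PIX, an exchange factor for Rac and Cdc42 that is recruited to adhesions with the GIT proteins. It had 94.0, 95.7 and 106 CPM in Sharpin-cpdm libraries 1 to 3, against 118, 116 and 119 CPM in wild-type libraries 1 to 3, groups that did not overlap. Its log2 fold change was -0.27 ± 0.05 with a blocked edgeR adjusted p of 0.0442. The call was lost in DESeq2 with the block (adjusted p 0.168), with gene-row totals in place of TMM (edgeR adjusted p 0.0566) and without pair 1 (edgeR adjusted p 0.0547). Efs, a relative of the Cas scaffold proteins, had 10.8, 6.96 and 23.1 CPM in Sharpin-cpdm libraries 1 to 3, against 21.5, 9.13 and 35.6 CPM in wild-type libraries 1 to 3. Its log2 fold change was -0.70 ± 0.12 with a blocked edgeR adjusted p of 0.0446. Of 8 genes for SRF and its partners 0 passed in the blocked edgeR fit. At an unadjusted p under 0.05 there were 2, beside 2326 of the 13442 tested genes. The smallest p belonged to Elk3 at -0.23 ± 0.06 and to Mkl1, which encodes the actin-sensing SRF coactivator MRTF-A, at 0.21 ± 0.06. Their blocked edgeR adjusted p were 0.143 and 0.162. Of the blocked alternatives, Elk3 passed only in the fit without pair 1, at -0.30 (edgeR adjusted p 0.0242). It did not pass without pair 2 (edgeR adjusted p 0.411) or pair 3 (0.454). Mkl1 passed only with offsets for GC content and length, at 0.28 (edgeR adjusted p 0.0474). In DESeq2 with the block its adjusted p was 0.766. Over all tested genes the fit without pair 1 called 140 higher and 533 lower, and that with offsets 168 higher and 297 lower. Median log2 fold changes of the 6 lists ran from -0.02 for SRF and its partners to 0.10 for the myosin list, beside 0.10 for the 10 adaptors and -0.0017 for all tested genes. Several of the contractile genes that rose are also expressed by myoepithelial and smooth muscle cells. The sum of the 10 basal and myoepithelial markers, given above by library, was higher in Sharpin-cpdm in pair 1 and lower in pairs 2 and 3, with Krt15 and Dsc3 under 1 CPM everywhere. The pericyte and vascular smooth muscle sum was lower in Sharpin-cpdm in all 3 pairs, and Pdgfrb held the largest part of it. Of its 11 tested members, 5 were lower in all 3 pairs, and 1, Lmod1, was higher in all 3. Des was lower in Sharpin-cpdm in pair 1 alone, at 456 against 751 CPM. Myh11 was higher in pair 1 and lower in pairs 2 and 3. Des thus held 751 of the 2490 CPM of this sum in wild-type library 1. Among the listed actin cross-linkers, Actn2, Actn3 and Synpo2l were also highest in that library, at 191, 155 and 117 CPM. Sharpin-cpdm library 1 had 79.1, 85.0 and 60.4 CPM of them. The source of these transcripts was not tested. The part of myoepithelial and smooth muscle cells in the values was not tested either.

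**Figure D5:**
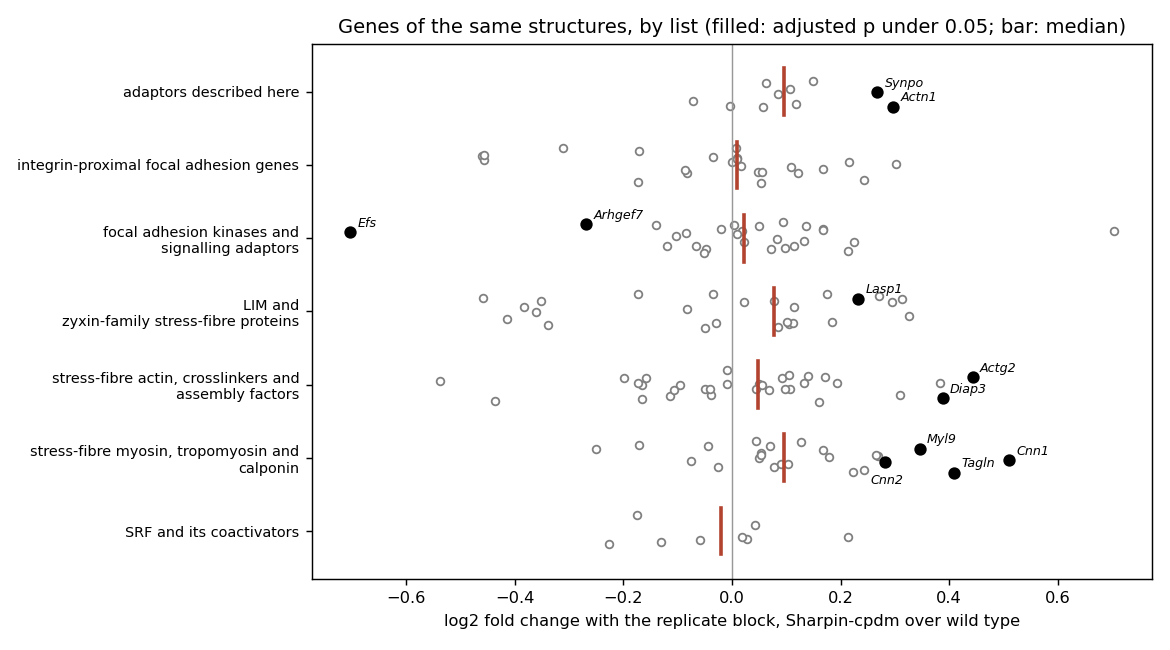
Log2 fold change with the replicate block (Sharpin-cpdm over wild type, x axis) of each of the 10 adaptor genes and of the 139 other genes in 6 lists. Filled points had an adjusted p under 0.05 in edgeR's test, vertical bars are list medians; 9 of the 139 are filled, 7 to the right of 0 and Arhgef7 and Efs to the left.

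The median profile of the 10 adaptors over the 6 libraries, in log2 CPM centred on each gene's mean, was 0.0028, 0.31 and -0.15 in Sharpin-cpdm libraries 1 to 3, against -0.066, 0.14 and -0.25 in wild-type libraries 1 to 3. Tgfb1i1 lay nearest to it, at a root mean square distance of 0.035, and Zyx farthest, at 0.26. Outside the adaptors, the 5 nearest of the tested genes were Bop1, Polr2f, Nup85, Rps14 and Nars, at distances from 0.026 to 0.027 over the 6 libraries, where the median of all tested genes was 0.26. Being chosen by these same libraries, they had to have genotype differences near that of the median profile. Their log2 fold changes with the block were between 0.084 and 0.14, and 0 of the 5 passed in edgeR's test.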

How the data were processed

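RNA-seq counts from 6 mouse libraries were analysed. The authors deposited 1 table of raw counts per library, whole reads per gene symbol. The genome build mm10 and the tools HTSeq 0.5.4p3, TopHat2 2.0.10 and bcl2fastq 1.8.4 are named in the submitters' processing notes; annotation, strand and overlap settings are not given in the sources used here. Per the labels' protocols, TruSeq RNA v2 libraries were made. The 5 summary rows (48.8% to 51.2% of entries, mostly alignments that were not unique) were left out.

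Levels are CPM of gene-row totals. Tests used edgeR 4.0.16 in R 4.3.3: filterByExpr left 13442 genes, TMM factors were 0.969 to 1.03, and a two-sided quasi-likelihood F-test of genotype was adjusted by Benjamini-Hochberg over all tested genes (threshold 0.05). SE is the log2 fold change divided by the root of F. edgeR was checked on simulated counts with 200 changed genes and a built-in effect of the replicate number. As the pairing was built in, the check cannot show whether the numbers pair the real libraries. Alternatives used DESeq2 1.42.0 and limma 3.58.1, other scalings and filters, GC and length offsets (99.1% of tested genes matched), and omitted libraries or pairs. Profiles use log2 CPM with a prior count of 2. Coordinates and lengths are from GENCODE M21.

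Both genotypes carry replicate numbers 1 to 3. Deviations from group means, correlated across genes (not independent replicates), gave 0.457, 0.809 and 0.737 for libraries of the same number and at most 0.0068 for others, so same-numbered libraries were treated as pairs, a pairing read from the counts since the labels give no meaning for the numbers. Deviations within a group cancel for each gene, so high values for some libraries lower those for others. The low values are therefore not separate support for the pairing. The statistic of a chi-square test between libraries of a group was at least 17.7 per degree of freedom, so none were duplicates. The labels name pools of mice, so p-values without the block measure the spread between pools. Those with the block measure the spread of the differences within same-numbered pairs.

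Named genes were all 10 adaptors, Sharpin, up to 4 called genes per list (else 2 with the smallest p) and the 5 nearest profiles; Srf was added after its values were seen. The named genes of the lists were also read in the blocked alternatives. Members and lists were chosen with earlier results of these data known. A gene of these lists is not reported here and was left out of its list.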

Additional observations from a re-analysis of the deposited data

How the results depend on the processing

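The block decided the calls. The count of adaptors that rose was 0 without it and 2 with the replicate block, also with GC and length offsets (2), with DESeq2 size factors (2), with gene-row totals (2) and in limma-voom (2), and 1 in DESeq2 with the replicate block; in the block fits without 1 pair it was between 0 and 2. Of the 139 genes in the 6 lists 0 passed without the block, against 7 higher and 2 lower with the replicate block, and 0 to 11 higher and 0 to 7 lower with 1 pair left out (a setting chosen after seeing the data). Sharpin's log2 fold change passed with the replicate block (-1.48), with offsets (-1.44), gene-row totals (-1.47) or DESeq2 size factors (-1.48) added to it, in DESeq2 without (-1.49) and with the block (-1.48), in limma-voom with it (-1.49), and in block fits without 1 pair (-1.61 to -1.34, with -1.50 without pair 2); without the block, leaving out 1 library gave -1.56 to -1.37 and no call.

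The causes of these changes were not tested. Signs turned for the differences that follow. Without Sharpin-cpdm replicate 2 the log2 fold changes were -0.17 for Actn4, -0.075 for Lpp, -0.023 for Ptk2, -0.15 for Vcl and -0.21 for Zyx, and without wild-type replicate 3 they were -0.079 for Actn4, -0.0067 for Lpp, -0.09 for Vcl and -0.10 for Zyx. With 1 library left out these values reached 0.35 for Actn4, 0.17 for Lpp, 0.14 for Ptk2, 0.34 for Vcl and 0.43 for Zyx, each without wild-type replicate 2. These are unpaired fits; in block fits with a pair left out the 5 genes stayed above 0 (0.078 to 0.091 for Actn4, 0.024 to 0.13 for Lpp, 0.030 to 0.081 for Ptk2, 0.078 to 0.15 for Vcl and 0.11 to 0.14 for Zyx). Zyx over Lpp ran from -0.13 to 0.26 with 1 library left out, and took -0.096 without Sharpin-cpdm replicate 2. Vasp, at -0.0027 without the block, was 0.051 with the block and offsets, 0.00039 with DESeq2 size factors, 0.0068 with gene-row totals, 0.0079 with the block and gene-row totals, 0.0028 with no low-count filter, 0.00028 in DESeq2, 0.0085 in the block fit without pair 1, and between -0.082 and 0.083 with 1 library left out (0.028 without wild-type replicate 1, 0.053 without wild-type replicate 2, 0.083 without Sharpin-cpdm replicate 3). The exact tests of the ratios could not reach 0.05, at smallest p of 0.1, and of 0.25 within pairs, where each gave 0.25. With offsets for GC and length 63.9% of the calls over all genes were lower, against 84.3% in the block fit.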
